A study of Homo sapiens with 6 samples.

Results

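DEAD-box helicases other than DDX5 and DDX17 were followed through RNA that came down with DDX5 itself. A list of 32 human genes was used: DDX genes and the 3 EIF4A genes, all found by symbol in the GENCODE version 44 annotation of the build GRCh38, out of 20046 protein-coding genes. A peak belonged to a member when its summit lay inside the gene's annotated body, on either strand. The study immunoprecipitated DDX5 (DDX5_IP) from nuclear extracts of RH30, a line of alveolar rhabdomyosarcoma, a childhood muscle-lineage tumour, with the PAX3-FOXO1 fusion, using the antibody ab126730. It has 3 such immunoprecipitates and 3 INPUT samples without antibody from the same line, labelled as replicates. 1 peak list per immunoprecipitate was used, and the INPUT samples were not analysed here. The lists held 23715, 23651 and 45832 peaks in replicates 1, 2 and 3, and the members held 43, 41 and 131 of them, 215 in all.

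DEAD-box proteins are ATP-driven enzymes that open short RNA duplexes or strip proteins from RNA, and they are named for amino acids of a motif that takes part in ATP hydrolysis. Different members serve the spliceosome, the nucleolar assembly of ribosomal subunits, nuclear mRNA export, translation initiation and mRNA decay. DDX5 is a nuclear member of the same family that acts in splicing and transcription, so the peaks below are places where transcripts encoding its relatives were enriched in its immunoprecipitate. The value of a peak is its fold enrichment, a ratio over the peak caller's background that the authors deposited. The control behind that background is not given in the sources used here, and no RNA level was at hand, so enrichment and transcript abundance cannot be told apart. The values below are descriptions, with no test, and the replicates measure only the spread between these 3 lists.

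Of the 6 regions whose summits were coding in all 3 lists, 1 per gene is shown first, that with the highest mean percentile of fold among the peaks of a list, since these are coding positions enriched in every list. Each line gives the coding strand, 5′ to 3′, over 50 bases on each side of the strongest summit of a region. Capitals mark the 5 bases centred on the summit of each list whose summit falls in the window. The DDX24 window lies at chr14:94060540-94060640 on the minus strand, with its marked summits in exon 5. Its first bases, as far as tctgcag, belong to the intron before that exon. The DDX39A window lies at chr19:14411031-14411131 on the minus strand in exon 5. The DDX18 window lies at chr2:117817499-117817599 on the plus strand in exon 2, and the DDX39B window at chr6:31536566-31536666 on the minus strand in exon 5, all in GRCh38.
DDX24: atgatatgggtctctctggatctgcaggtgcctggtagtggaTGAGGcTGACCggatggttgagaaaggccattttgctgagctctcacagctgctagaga
DDX39A: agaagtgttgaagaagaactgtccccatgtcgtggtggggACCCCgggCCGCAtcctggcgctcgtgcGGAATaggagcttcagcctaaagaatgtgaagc
DDX18: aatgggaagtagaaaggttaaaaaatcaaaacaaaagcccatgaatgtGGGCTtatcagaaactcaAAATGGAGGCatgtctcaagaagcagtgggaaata
DDX39B: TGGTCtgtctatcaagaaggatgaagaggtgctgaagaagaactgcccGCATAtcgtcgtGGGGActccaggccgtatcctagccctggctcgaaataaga
The DDX24 window holds the summits of 2 lists, and the other windows hold those of 3. In DDX24 the replicate 1 summit lay outside the window, and the capitals of the other replicates lie on GATGAGGCTGAC, the codons of its DEAD motif, apart from the last capital, which is the next base. GC content was 52.5% in the DDX24 window, intronic bases included, 57.4% in the DDX39A window, 37.6% in the DDX18 window and 52.5% in the DDX39B window.

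Peaks lay in 30 of the 32 genes, and 13 members had a peak in every list. That is 43.3% of the 30, against 49.8% of the 10352 protein-coding genes with any peak. It is also 40.6% of the 32, against 25.7% of all 20046 protein-coding genes. The first share was close to the background and the second above it. The median MANE Select transcript (the reference transcript of a gene) had 3070 bases in the members, against 2885 in all protein-coding genes. Among genes with a peak the medians were 3236.5 and 3575 bases. Within the members it was 3256 bases for those in every list and 2656 for the others. Whether length bears on these shares was not tested. A further 10 members had peaks in 2 lists and 7 in 1 list. The share in at least 2 lists was 76.7% of the members with a peak, against 76.2% of all protein-coding genes with one. DDX28, a helicase of mitochondrial ribosome assembly, and DDX59, known from ciliary signalling, had none. All 7 genes found in 1 list were found in replicate 3, against 61.3% of all protein-coding genes found in 1 list. Replicate 3 also held 60.9% of the members' peaks, against 49.5% of the peaks of all protein-coding genes. With its longer list, replicate 3 had the most peaks in 11 of the 13 members present in every list.

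**Figure D1:**
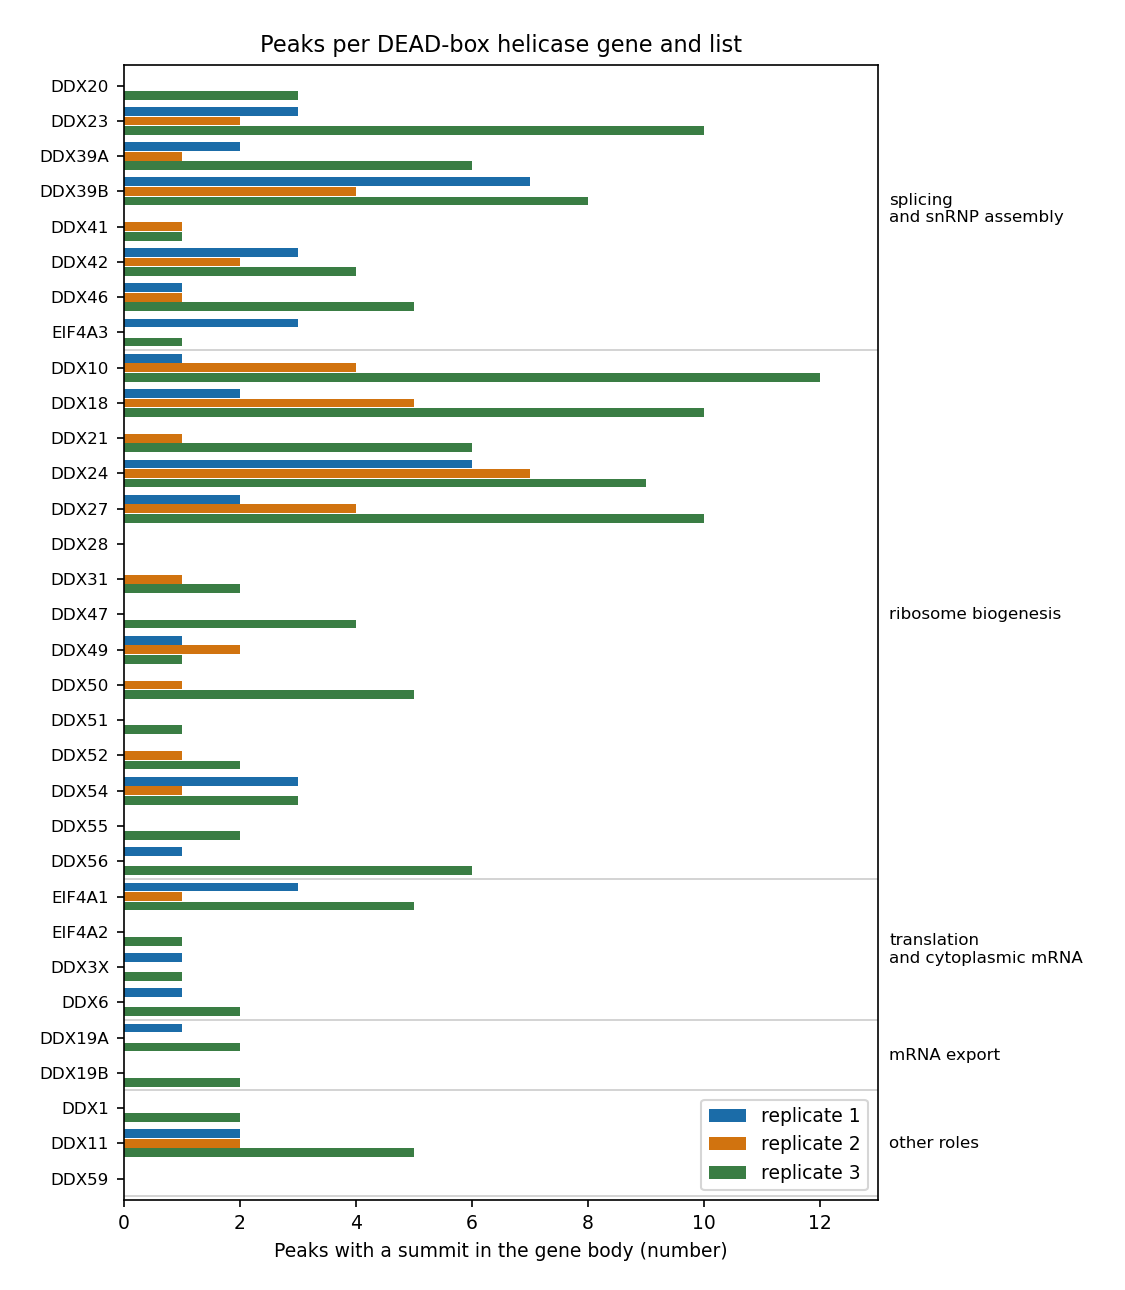
Number of peaks with a summit in the gene body (x axis) for each of the 32 helicase genes, grouped by role, with 1 bar per DDX5 immunoprecipitate. DDX24 had 6, 7 and 9 peaks in replicates 1, 2 and 3, and most other members had their longest bar in replicate 3.

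By role, 5 of the 8 splicing members had a peak in every list: DDX23, DDX39A, DDX39B, DDX42 and DDX46. Of the 15 ribosome biogenesis members, 6 did: DDX10, DDX18, DDX24, DDX27, DDX49 and DDX54. EIF4A1 was the only one of the 4 translation and cytoplasmic mRNA members, neither of the 2 mRNA export members did, and DDX11 did among the 3 genes of other roles. DDX39A and DDX39B, which also act in mRNA export, were counted under splicing only, so the counts of both roles depend on that choice. The roles were not compared by a test. Many peaks of a list carry the same pair of fold and p, and when pairs that recur in at least 10 peaks were left out, 6 members kept a peak in every list: DDX11, DDX18, DDX24, DDX39B, DDX42 and EIF4A1. The background was then 37.7% of the 6105 protein-coding genes that kept any such peak. The number of members that kept any such peak is not given here, so the 6 have no share on that base. The fold enrichment of a gene in a list is that of its best peak, the one with the lowest q-value, and its percentile is its rank among the best peaks of all protein-coding genes in that list. Over genes and lists, the median percentile was 37.2 for the members and 50.3 for all protein-coding genes. It was 31.3 for splicing, 39.2 for ribosome biogenesis, 5.51 for translation and 31.2 for mRNA export members, and 54.6 for those of other roles. The best peaks of the members thus ranked below the middle of the list more often than above it.

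**Figure D2:**
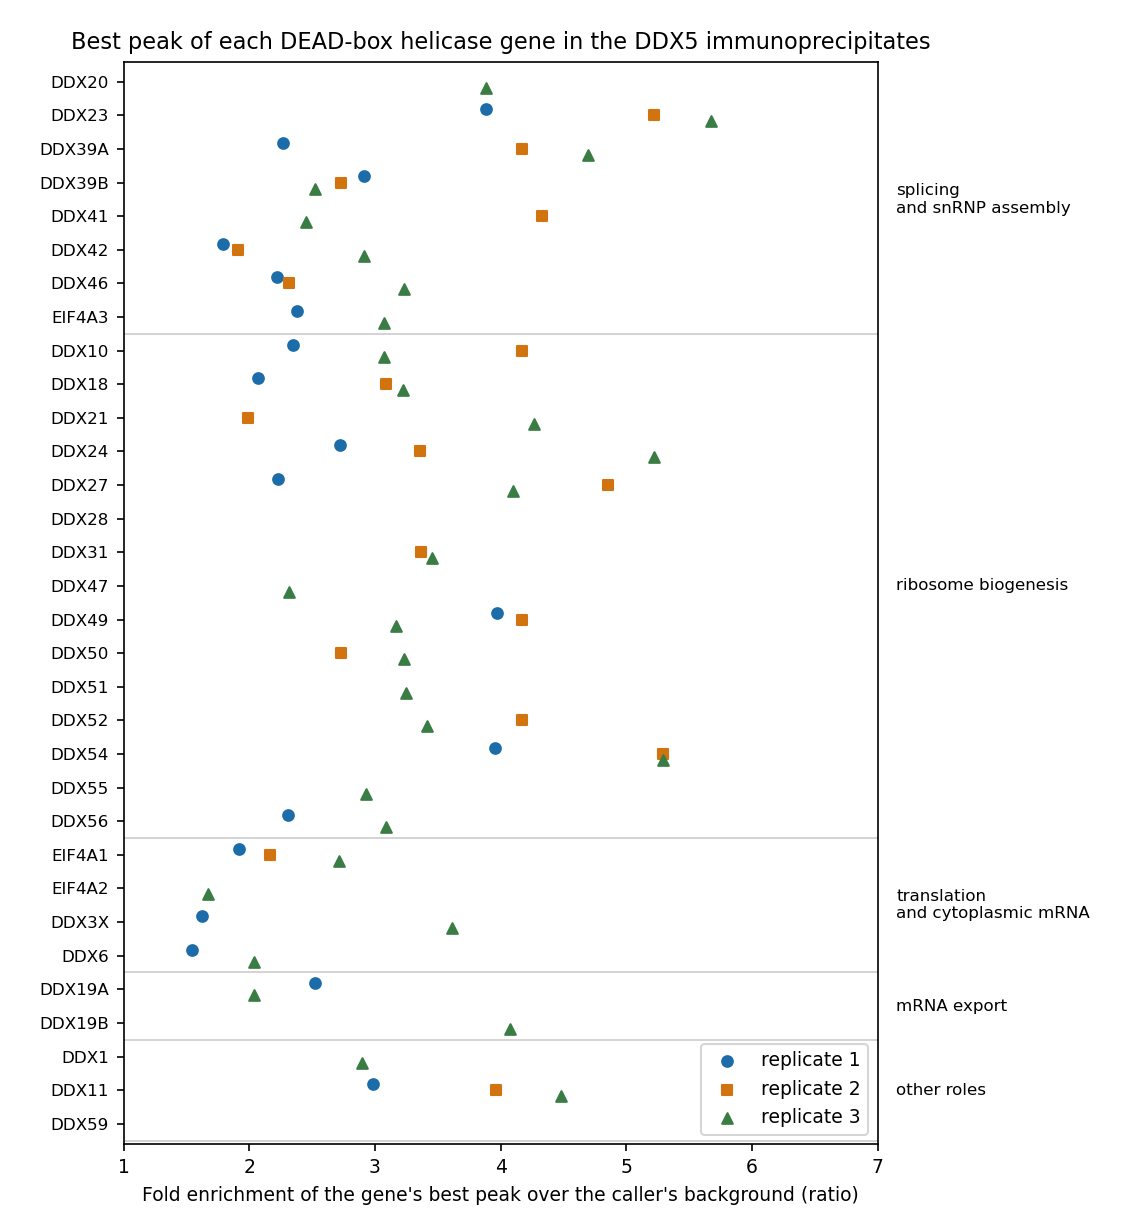
Fold enrichment of the best peak (x axis, a ratio) in each of the 3 lists, 1 marker shape per replicate, for the 32 members grouped by role. DDX23 and DDX54 had the highest means of the members present in every list, 4.92 and 4.85, and no marker stands for DDX28 or DDX59.

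Among splicing members, DDX23 stood highest. DDX23, the human counterpart of yeast Prp28, helps to exchange small nuclear RNPs at the 5′ splice site. Its best peak had fold enrichments of 3.88, 5.22 and 5.67 in replicates 1, 2 and 3, which average 4.92 ± 0.931 (SD, n = 3), and its mean percentile was 82.4. In all 3 lists this peak was the same 493-base region in the 3′ UTR, at chr12:48829799-48830291. Its summits lay 604, 613 and 439 bases past the stop codon in replicates 1, 2 and 3. The gene had 3, 2 and 10 peaks, and the highest fold of any of them, 6.17, belonged to a peak of replicate 3 in an exon that the MANE Select transcript does not use. Of the 15 peaks, 5 had a near-identical copy of the summit window elsewhere in the genome (at least 95% identity over 90 of 101 bases), at the locus of KRT125P, among them the replicate 3 peak of the 3′ UTR region but not those of replicates 1 and 2. Without recurring pairs, DDX23 no longer had a peak in every list.

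DDX39A and DDX39B are close paralogues that act in splicing and mRNA export, and their coding sequences were 80.0% identical. DDX39A had best folds of 2.27, 4.17 and 4.69 in replicates 1, 2 and 3, on average 3.71 ± 1.27 (SD, n = 3). DDX39B had 2.92, 2.73 and 2.52, a mean of 2.72 ± 0.199 (SD, n = 3), the narrowest spread of the 13. Its best peaks lay at different sites: a non-coding exon in replicate 1, the 3′ UTR in replicate 2 and coding exon 4 in replicate 3. The fold ranges of DDX39A and DDX39B overlap. Both genes carried a region of all 3 lists in exon 5, which has 184 bases in each gene. These exons match at 143 bases, or 77.7%, and their longest identical run is 17 bases, so the exons are not near-identical copies. The summits lay at bases 84, 112 and 92 of the exon in DDX39A and at bases 80, 20 and 68 in DDX39B, in replicates 1, 2 and 3. The DDX39A exon 5 region had folds of 2.13, 4.17 and 4.69, and the DDX39B one had 1.73, 1.97 and 2.06. Without recurring pairs, DDX39A was no longer in every list. The DDX39A region was the higher in each list, and the values of the exons did not overlap. DDX39B held 19 peaks, and all of their summits also lie in the readthrough gene record ATP6V1G2-DDX39B. The windows of its exon 5 peaks in replicates 1 and 3 had a near-identical copy outside any gene.

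DDX46 and DDX42, both linked to the U2 small nuclear RNP, had lower folds. DDX42 had 1.79, 1.91 and 2.91 in replicates 1, 2 and 3 (SD 0.616, n = 3), and no region shared by all lists. DDX46 had 2.22, 2.32 and 3.23, a mean of 2.59 ± 0.561 (SD, n = 3). Its shared region, chr5:134854910-134855115, lies past the end of its MANE Select transcript and inside C5orf24, so these reads cannot be assigned to DDX46 alone. The 3 summits that lie in DDX46 and in no other gene all came from replicate 3, and leaving out recurring pairs also ended its presence in every list. DDX41, a helicase of the late spliceosome, had a 3′ UTR region in replicates 2 and 3, with folds of 4.33 and 2.45. EIF4A3, the RNA clamp of the exon junction complex, had best folds of 2.38 and 3.07 in replicates 1 and 3. DDX20, also known as Gemin3, a member of the SMN complex that assembles small nuclear RNPs, had 3 coding peaks, all in replicate 3, the best with a fold of 3.88.

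The ribosome biogenesis members, most of them nucleolar, held 116 of the 215 peaks. DDX54, a nucleolar helicase also known as a nuclear receptor corepressor, had best folds of 3.96, 5.29 and 5.30 in replicates 1, 2 and 3, on average 4.85 ± 0.773 (SD, n = 3). It was the only member with a peak of fold 4 or more in every list, and it was no longer in every list without recurring pairs. Its shared region, chr12:113158516-113158847 in the 3′ UTR of exon 20, had folds of 3.96, 5.29 and 3.61, with summits 302, 299 and 283 bases past the stop codon, so they lay within 19 bases of one another. The region also lies inside CFAP73, which runs on the other strand, and the kit does not keep strand. A coding region around residue 735 in exon 18 lay in DDX54 alone and had folds of 4.51 in replicate 1 and 5.30 in replicate 3.

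DDX24, the member with the most peaks at 22, was also the one with the most regions in all lists. Its yeast counterpart, Mak5, is needed for the large ribosomal subunit. Its best folds were 2.72, 3.36 and 5.22 in replicates 1, 2 and 3, on average 3.77 ± 1.30 (SD, n = 3). Its 4 shared regions lay in exons 3, 5 and 7 of the coding sequence and just past the stop codon in exon 9. The exon 5 region, chr14:94060075-94060658, had folds of 2.42, 4.76 and 4.19, the exon 3 region 2.72, 3.88 and 2.54, the exon 7 region 2.03, 3.36 and 2.98, and the 3′ UTR region 1.85, 2.95 and 2.80. Replicate 1 was the lowest in 3 of the 4 and replicate 3 in the exon 3 region. None of these summits lies in another gene, and no window of DDX24 had a near-identical copy.

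DDX18 had 12 regions, and 2 of them were in every list. It is a nucleolar helicase related to yeast Has1. Its best folds were 2.07, 3.09 and 3.22 in replicates 1, 2 and 3, on average 2.79 ± 0.630 (SD, n = 3), all in the exon 2 region shown above, with summits at residues 70, 72 and 64. The summit windows of that region have no near-identical copy, whereas 5 of the 17 DDX18 peaks, in other regions, match copies elsewhere. The second region lies at the start of the 3′ UTR, with folds of 1.61, 1.99 and 1.63 and summits 139, 121 and 89 bases past the stop codon. DDX49 had best folds of 3.97, 4.17 and 3.16, a mean of 3.77 ± 0.533 (SD, n = 3), all in 1 region of its 3′ UTR, chr19:18928356-18928583. All 4 DDX49 summits also lie in a gene on the minus strand, ENSG00000268193, and DDX49 too left the set without recurring pairs.

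DDX27 and DDX10 had peaks in every list without any region common to all, and neither remained in every list without recurring pairs. DDX27, a nucleolar helicase of the large subunit, had 2, 4 and 10 peaks with best folds of 2.23, 4.86 and 4.10, a mean of 3.73 ± 1.35 (SD, n = 3). Its 16 peaks were spread from exon 1 to exon 21. DDX10 had 1, 4 and 12 peaks and best folds of 2.35, 4.17 and 3.08, a mean of 3.20 ± 0.917 (SD, n = 3). The replicate 2 value was that of an intronic peak that touches no exon. In DDX10, 8 of the 17 peak windows had a near-identical copy, 7 of them at the locus of the pseudogene DDX10P2.

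The other ribosome biogenesis members were seen in fewer lists. DDX21 and DDX50, nucleolar paralogues with coding sequences 72.2% identical, had no peak in replicate 1. DDX21 had 1 and 6 peaks in replicates 2 and 3, and DDX50 had 1 and 5. Their replicate 3 best folds were 4.26 for DDX21 and 3.23 for DDX50. DDX31 had a 3′ UTR region in both replicates 2 and 3, with folds of 3.37 and 3.45, DDX52 had separate peaks in these lists, and DDX56 shared a coding region between replicates 1 and 3. DDX47, DDX51 and DDX55 had 4, 1 and 2 peaks in replicate 3 alone, and the DDX47 summits all lie in APOLD1 as well. Across the 17 members with peaks in 1 or 2 lists, best folds ran between 1.55 and 4.33, which overlaps the range of the 13 members present in every list.

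The translation members had the lowest median percentile of the roles. EIF4A1, the RNA helicase of the cap-binding complex eIF4F, had best folds of 1.91, 2.16 and 2.71 in replicates 1, 2 and 3, on average 2.26 ± 0.407 (SD, n = 3), and its mean percentile was 11.9. Its region in all lists, chr17:7578270-7578568, had its summits at the start of the 3′ UTR, with folds of 1.50, 2.16 and 1.88 and summits 29, 30 and 16 bases past the stop codon. All 9 EIF4A1 summits lie in an overlapping gene record, 8 of them in the readthrough SENP3-EIF4A1, and 6 of the 9 windows had near-identical copies elsewhere, among them EIF4A1 pseudogenes. EIF4A2, the paralogue of EIF4A1 with 77.3% identity, had a single peak, in replicate 3, with a fold of 1.67. DDX3X, which acts in translation initiation on structured leaders, had folds of 1.62 and 3.62 in replicates 1 and 3, the second in an intron. DDX6, a helicase of mRNA decay and translational repression, had 1.55 and 2.03 in the same replicates. No translation member other than EIF4A1 had a peak in replicate 2.

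DDX19A and DDX19B, the export helicases at the nuclear pore, have coding sequences 95.3% identical. DDX19A had folds of 2.52 and 2.04 in replicates 1 and 3, and DDX19B had 4.08 in replicate 3. Both DDX19B peaks and 1 of the 3 DDX19A peaks had a near-identical copy, each in the other gene's locus. DDX11 is a DNA helicase of sister chromatid cohesion whose motif reads DEAH. It had best folds of 2.98, 3.96 and 4.48 in replicates 1, 2 and 3, on average 3.81 ± 0.761 (SD, n = 3), all in the 3′ UTR of its last exon. All 9 DDX11 peaks had a near-identical copy, several at the locus of its duplicate DDX12B, and peaks of the lists also lay at copies of 7 of the 9 windows. DDX1, which takes part in tRNA ligation, had 2 intronic peaks, both in replicate 3.

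Across all members, 54.1 ± 9.46% of the peaks of a list had their summit in coding sequence, against 38.5 ± 10.7% for all protein-coding genes (SD, n = 3 lists). The member share was 55.8%, 43.9% and 62.6% in replicates 1, 2 and 3, against 37.3%, 28.4% and 49.7%, so it was the higher in each list. Over the lists the ranges overlap. Introns held 9.15 ± 8.08% of the member peaks, against 25.1 ± 10.8%, and 3′ UTRs 31.5 ± 11.5%, against 33.1 ± 8.78%. No member peak of replicate 1 was intronic. Of the 25 intronic member peaks, 14 reached into an exon and 11 did not. The coding share was 65.9 ± 9.78% in ribosome biogenesis members, 48.6 ± 18.5% in splicing members and 21.5 ± 22.3% in translation members (SD, n = 3 lists), the last from 15 peaks. GC content at coding summits had pooled medians of 50.5% in members and 51.5% in all protein-coding genes. In replicates 1, 2 and 3 the medians were 53.5%, 48.5% and 49.0% in members, against 52.5%, 52.5% and 50.5% in all. At 3′ UTR summits the pooled medians were 50.0% in members and 45.5% in all. By replicate they were 54.5%, 53.0% and 47.0% in members, against 44.6%, 45.5% and 45.5% in all.

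**Figure D3:**
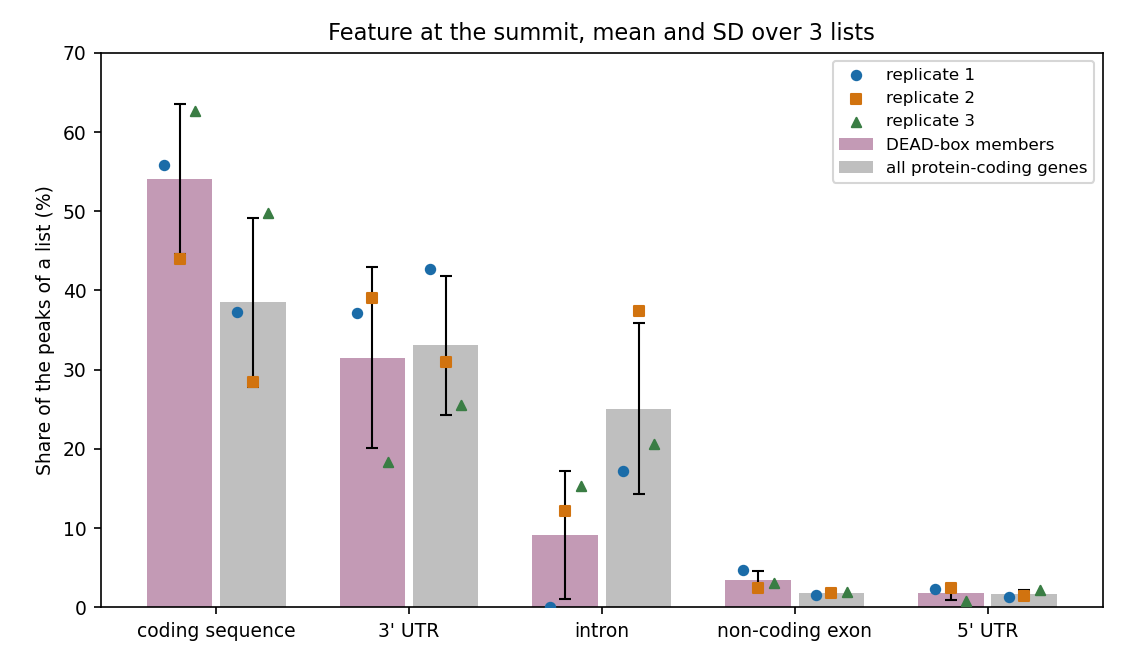
Share of the peaks of a list (y axis, percent) by the feature at the summit, for the helicase members (left bar of each pair) and all protein-coding genes (right bar). Bars are means over 3 lists with SD, and markers are the single lists. The coding share of members, 54.1%, stands above the 38.5% of all protein-coding genes, and the intronic share, 9.15%, below the 25.1%.

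Within transcripts, the members' peaks were spread along the reading frame. Of 121 coding summits in MANE Select transcripts, 50 lay in the first of 3 equal parts of the frame, 39 in the middle one and 32 in the last. The coding exons that held a summit had a median of 158.5 bases, over 88 exons, against 129 bases over all 465 coding exons of the members. Longer exons have more room to hold a summit, so no conclusion is drawn from this difference. The 52 summits in 3′ UTRs lay at a median of 240.5 bases past the stop codon, and 30 of them within 300 bases of it. The DEAD-box motif was found once in every member's predicted protein. It reads DEAD in 26 members, DECD in DDX39A and DDX39B, DEVD in DDX21 and DDX50, DESD in DDX52 and DEAH in DDX11. An interval covered all codons of the motif in 14 cases, in 8 members, so most peaks lay elsewhere. It did so in every list for DDX24 and DDX39A, and in 2 lists for DDX23 and DDX56. In DDX24 the motif starts at residue 471 and the summits of replicates 2 and 3 lay at residues 472 and 474, while that of replicate 1 lay at residue 588. In DDX23 the motif codons are GATGAGGCAGAT, from residue 549, with summits at residues 560 and 551 in replicates 1 and 3. In DDX39A they are GACGAGTGTGAC, from residue 195, with summits at residues 171, 181 and 174.

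**Figure D4:**
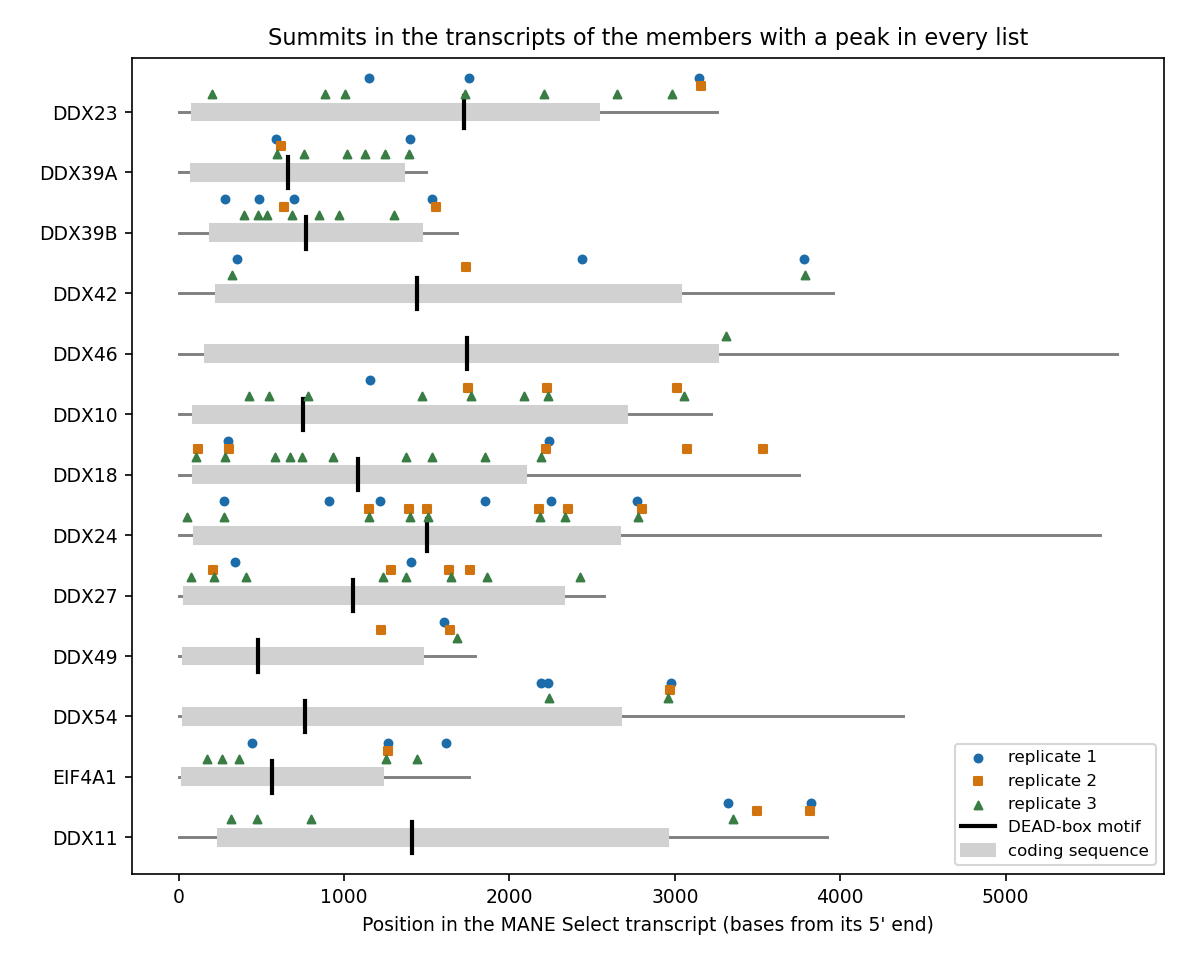
Summits of replicates 1, 2 and 3 (markers) along the MANE Select transcript (x axis, bases from its 5′ end) of the 13 members with a peak in every list. Grey blocks are coding sequence and black ticks the DEAD-box motif. DDX24 has summits beside the tick in replicates 2 and 3, and the shared DDX46 region and summits in introns or in exons of other transcripts are not drawn.

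The members' intervals merged into 149 regions. Of these 15, or 10.1%, were in 3 lists, 35 in 2 and 99 in 1. For all protein-coding genes the shares were 14.2% in 3 lists, 21.7% in 2 and 64.1% in 1 of 60739 regions. The 15 regions fell in 10 of the 13 genes that had a peak in every list. Overlapping genes and copies bear on many of them: 51 of the 215 member summits lie in another gene record too, and 45, in 11 members, have a near-identical copy of the summit window. Counting only summits in no other gene, 8 members had a peak in every list. The background at that setting was 47.7% of the protein-coding genes with such a peak, and the number of members with such a peak is not given here. Without windows that have a copy, 10 did, and without both kinds 6 did: DDX18, DDX23, DDX24, DDX27, DDX39A and DDX42. Copies were searched for member windows only, so the counts without copies have no background. No share over all peaks is given for the 51 or the 45 either, so these losses cannot be called particular to the members. How reads that match several places were handled is not given in the sources used here. A total of 12 small nucleolar RNA genes lie inside 5 members, and no summit fell in one, though 3 intervals touched one.

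Genes that work with the members gave context. For scale, all 3 lists held 25.7% of the 20046 protein-coding genes, or 49.8% of the 10352 that had any peak. All 7 rhabdomyosarcoma markers had a peak in every list. Like the other gene lists, these markers were chosen with earlier results of these data known. PAX3 and DES, the muscle filament gene desmin, ranked highest of them by mean percentile. Their mean best folds were 4.23 ± 1.54 and 4.95 ± 3.12 (SD, n = 3). MYOD1 ranked lowest, with 2.11 ± 0.525 (SD, n = 3) and a mean percentile of 14.4. The median percentile of the markers' best peaks was 39.5, against 50.3 for all protein-coding genes. Of 23 DEAH and Ski2-like RNA helicases, 11 had a peak in every list. That is 50.0% of the 22 with any peak, close to the share over all such genes. By mean percentile the first 4 were DHX16 with a mean best fold of 5.45 ± 1.97, SNRNP200 with 4.96 ± 0.489, ASCC3 with 4.88 ± 1.87 and DHX30 with 4.49 ± 1.17 (SD, n = 3). The median percentile of best peaks was 37.2 for the DEAD-box members and 52.3 for these helicases. Of 8 eIF4F components and regulators, 6 were in every list, PABPC1 with 4.95 ± 2.23 and EIF4G1 with 4.35 ± 1.49. Of 7 exon junction complex partners of EIF4A3, 2 were, CASC3 and UPF1, and of 6 SMN complex partners of DDX20, 2 were, GEMIN5 and GEMIN4. The DDX6 partners in mRNA decay had 5 of 8, with EIF4ENIF1 highest at 5.24 ± 2.56, and the mRNA export partners 5 of 8, with NXF1 highest at 3.99 ± 1.29. Of the genes with any peak, these counts are 100% of 6 for eIF4F and 33.3% of 6 for the exon junction complex. They are 66.7% of 3 for the SMN complex, 62.5% of 8 for mRNA decay and 71.4% of 7 for mRNA export. The lists are small, and none of these shares was tested. DEAD-box genes known for germ cells were mostly absent, with 0 of 4 in every list and 1 of 4 in any list.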

How the data were processed

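RNA immunoprecipitation sequencing of DDX5 was carried out on nuclear extracts of RH30 cells with an unstranded kit, per the labels' protocols. Per the submitters' processing notes, MACS2 2.2.7.1, SAMtools 1.10, STAR 2.6.1d, cutadapt 1.11, FastQC 0.11.8 and bcl2fastq 2.20 were used with GRCh38/hg38, with parameters and the control of the peak calls not given in the sources used here. The fold enrichment of each peak is a ratio made by the authors, and the deposited p-value and q-value are each a −log10. A score column the authors deposited was left unused. Depth is unknown, so no counting interval is given.

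Intervals on the autosomes 1 to 22, the sex chromosomes and mitochondrial DNA entered, with 1 summit per interval, that of the highest −log10 q. Features came from all transcripts of a gene in GENCODE version 44, with coding sequence before UTRs, UTRs before other exons and introns last. Peaks sharing at least 1 bp were merged into regions. Windows of 50 bases on each side of a summit were searched against the genome with blastn 2.17.0. Python 3.11.15, pandas 2.3.3, numpy 2.4.6, Biopython 1.88, pysam 0.24.0 and matplotlib 3.10.9 were used, and peak assignment was tested on simulated data. The members and gene lists were chosen with earlier results of these data known. Named were every member, genes that share a member's summit, and some of the 4 genes of each related list with the highest mean percentile of best fold. Genes at near-identical copies were named after their values were seen. Alternatives covered q, fold, overlapping genes, exons, list length, shared pairs of fold and p, overlap definitions and each replicate left out. Those without near-identical copies were added after seeing the data.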

Additional observations from a re-analysis of the deposited data

How the results depend on the processing

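The 13 members in every list became 9 at a q under 1e-05, 1 at a fold of at least 4 (DDX54), 8 for summits in no other gene, 6 without peaks whose pair of fold and p recurs in at least 10 peaks of a list (shared pairs; DDX10, DDX23, DDX27, DDX39A, DDX46, DDX49 and DDX54 were lost), and 6 without near-identical copies and other genes. The number with a peak in at least 2 lists was 23, or 76.7% of those with a peak, against 76.2% of all protein-coding genes with one. At the same settings the background was 35.4%, 13.9%, 47.7% and 37.7% of protein-coding genes with such a peak for the first 4. The number of members with any such peak is not given at these settings, so the member counts are not shares on that base. No background was computed for the settings without copies. The 5 splicing members became 0 at the fold minimum, 3 outside other genes, 2 without shared pairs, and 3 without copies and other genes. The 6 ribosome biogenesis members became 3 at the stricter q, 1 at the fold minimum, 2 without shared pairs, and 3 without copies and other genes. EIF4A1, the 1 translation member, gave 0 at the fold minimum, 0 outside other genes and 0 without copies, alone or with both conditions. The 15 regions in every list became 7 at the stricter q, 0 at the fold minimum, 9 outside other genes, 5 without shared pairs, 7 at a reciprocal overlap of 50% and 7 without copies and other genes. Leaving out 1 replicate gave 13 to 18 members, 5 to 6 splicing members, 6 to 10 ribosome biogenesis members (10 without replicate 1), 1 to 3 translation members (3 without replicate 2) and 17 to 34 regions (29 without replicate 1 and 34 without replicate 2), since only 2 lists then had to agree. The mean of 71.7 member peaks per list was 38.3 at the stricter q, 12 at the fold minimum and 21 without shared pairs. The coding share of 54.1% was 70.7% at the fold minimum and 49.9% to 59.2% with a replicate left out. Shared pairs of fold and p made up 70.7% of member peaks and 66.8% of those of all protein-coding genes. Why such pairs recur was not tested. Of 60 alternatives for the fold of single members, 57 moved it by less than its SD over lists. Leaving out 1 replicate cannot move a mean of 3 by as much as its SD, so those alternatives show no stability. Keeping only summits in no other gene returned the same fold for the 8 members that stayed in every list. DDX39B, DDX46, DDX49, DDX54 and EIF4A1 did not stay, so they have no value at that setting. The 3 that moved further all took the best peak by fold, which gave DDX39B 3.00, DDX42 3.26 and DDX18 3.54. No paired analysis was possible because no test was run and the INPUT samples were not analysed here. The unknown depth limits what the absence of a peak in a list can show.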

Other observations

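Of the paralogues DDX21 and DDX50, described after their values were seen, DDX21 had replicate 3 coding summits at residues 7, 72, 349, 382 and 727, and DDX50 at residues 7, 74, 178 and 385. The residue numbers were not aligned between the proteins, and the motif starts at residue 339 in DDX21 and at residue 290 in DDX50. The summits at residue 7 had folds of 4.26 in DDX21 and 4.04 in DDX50. Those at residue 72 of DDX21 and residue 74 of DDX50 had folds of 2.28 and 3.23. Of the DDX50 windows, 3 of 6 had a near-identical copy elsewhere, those at residues 7 and 74 among them, and no DDX21 window did.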
